A study of Homo sapiens with 15 samples.

Results

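The cell-type splicing regulators ESRP1, ESRP2, SRRM4, SRRM3, PTBP1, PTBP2, RBFOX2, RBFOX3, NOVA1 and NOVA2, were followed in C4-2B cells. They were chosen by name, as RNA-binding proteins known to set epithelial or neuronal splicing, and all 10 were among the 58302 genes counted. The labels name 15 RNA-seq libraries in 5 groups. Those of C4-2B cells (n = 3) were analysed here, and the others were not analysed here. C4-2B is a castration-resistant prostate adenocarcinoma line derived from LNCaP, and the labels give it as wild type, with no siRNA or drug. It was grown in RPMI medium with serum, so the values describe a single line in a single condition. ESRP1 and ESRP2 were taken as the epithelial members and SRRM4, SRRM3, PTBP2, RBFOX3, NOVA1 and NOVA2 as the neuronal members. PTBP1 and RBFOX2 are made in many cell types and were placed on neither side.

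Splicing regulators of this kind bind short motifs in pre-mRNA, beside or within alternative exons, and the position of the bound protein decides whether an exon is kept or skipped. Epithelial cells use ESRP proteins to keep exons that mesenchymal cells leave out. Neurons replace PTBP1 by PTBP2 and add SRRM, RBFOX and NOVA proteins, which together bring neural exons and microexons into transcripts. In prostate cancer SRRM4 is known from tumours with neuroendocrine features, where it acts on the transcript of REST, the repressor of neuronal genes.

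A set of 3 exons carries this exchange, and their reference sequences are shown because the regulators whose levels follow are known to act on them. PTBP1 promotes skipping of exon 11 of its own transcript and exon 10 of the PTBP2 transcript, and either skip shifts the reading frame and sends the transcript to decay. SRRM4 adds an exon to REST that gives a truncated protein. Each line gives the 100 bases of intron before the exon in lower case and the exon in capitals, 5′ to 3′ on the plus strand of GRCh38.
PTBP1 exon 11, chr19:807769-807902: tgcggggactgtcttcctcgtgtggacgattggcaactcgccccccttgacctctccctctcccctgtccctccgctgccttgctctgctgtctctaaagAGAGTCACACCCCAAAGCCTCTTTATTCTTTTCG
PTBP2 exon 10, chr1:96806319-96806452: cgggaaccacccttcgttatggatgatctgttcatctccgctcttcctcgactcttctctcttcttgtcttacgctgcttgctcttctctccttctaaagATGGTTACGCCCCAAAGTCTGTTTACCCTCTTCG
REST alternative exon, chr4:56927515-56927664: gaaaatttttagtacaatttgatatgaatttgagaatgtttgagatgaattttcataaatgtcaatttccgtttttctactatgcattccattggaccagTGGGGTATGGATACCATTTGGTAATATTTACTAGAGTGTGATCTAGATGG

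The PTBP exons are both 34 bases long, a length that is no multiple of a codon, and 25 of their 34 bases were identical (73.5%). The intron stretches before them matched at 36 of 100 bases. The RNA-sense strand of each stretch was searched for TCTT (UCUU in RNA) and CTCTCT, which PTBP proteins bind, and matches were allowed to overlap. TCTT occurred 6 times before the PTBP2 exon, once before the PTBP1 exon and not at all before the REST exon. Among 165385 internal exons of protein-coding transcripts, 61.2% held any TCTT in the same window, 0.161% held at least 6, and the median was 1. CTCTCT occurred 1 time before the PTBP2 exon and in neither of the others, and 8.97% of windows held it. Pyrimidines made up 73% of the PTBP2 stretch, 69% of the PTBP1 stretch and 53% of the REST stretch, where the median window had 55%. TGC (UGC), the motif of SRRM4, was found in the last 30 intron bases 3 times before the PTBP1 exon, 2 times before the PTBP2 exon and 1 time before the REST exon. Of all windows, 42.2% held it at least 1 time, 10.6% at least 2 times and 1.71% at least 3 times. These matches describe the letters only. All 3 exons were part of the annotation used for counting, but reads were counted per gene, so the share of transcripts with each exon was not measured.

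The epithelial members were transcribed at high levels and the neuronal members ranged from moderate to barely detected. The summed level of ESRP1 and ESRP2 was 142.6 ± 2.64 TPM (the count per base of exon, scaled so that all libraries have the same sum; mean ± SD, n = 3). That of all 6 neuronal members was 15.2 ± 0.135 TPM, and the epithelial sum was 9.41 ± 0.148 times higher. On the log2(TPM + 1) scale the median of the epithelial members lay above that of the neuronal members by 5.12, 5.02 and 5.08 in replicates 1, 2 and 3 (mean 5.07 ± 0.046 SD). The sides did not overlap in any library. With a pseudocount of 0.1 in place of 1 this difference was 6.34, and 3 neuronal members lay below 1 TPM, where the pseudocount weighs most. No test was run on it, as 3 libraries of a single group allow no exact p below 0.25.

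**Figure D1:**
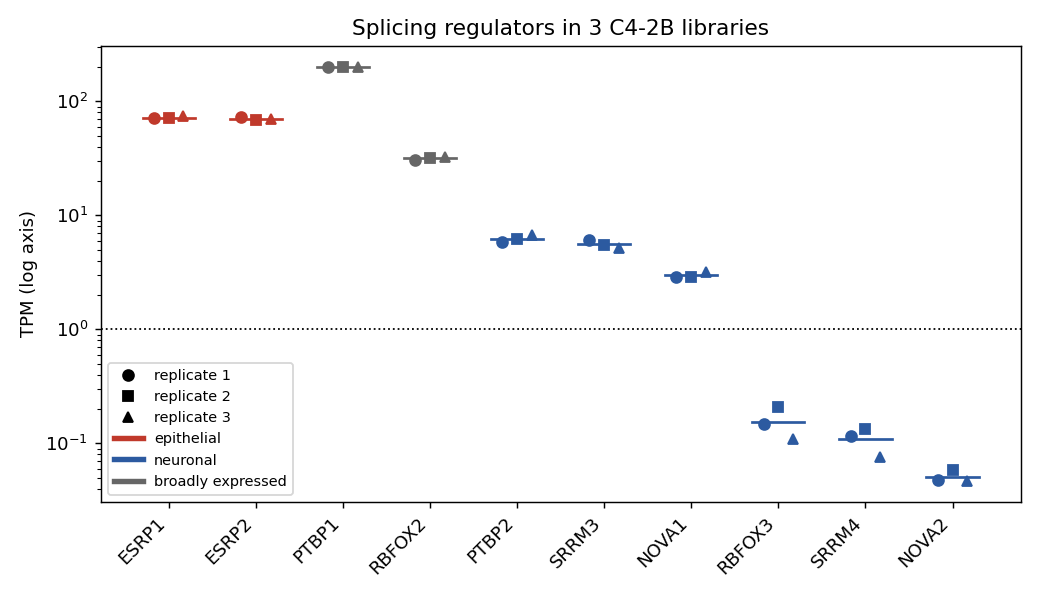
TPM of the 10 splicing regulators on a log axis, by gene; each symbol is 1 C4-2B library, the bar is the mean of 3 and the dotted line marks 1 TPM. PTBP1 lies near 200 TPM, ESRP1 and ESRP2 near 71 TPM, and RBFOX3, SRRM4 and NOVA2 lie below the line in all 3 libraries.

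At least 1 TPM in all 3 libraries was reached by 7 of the 10 members, against 32.8% of all 58302 genes and 61.2% of the 19708 protein-coding genes. These were both epithelial members, both broadly expressed members and 3 of the 6 neuronal members, SRRM3, PTBP2 and NOVA1. The median level of the neuronal members was 1.57 TPM and that of the epithelial members 71.3 TPM, beside 5.88 TPM for protein-coding genes and 0.171 TPM for all genes.

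**Figure D2:**
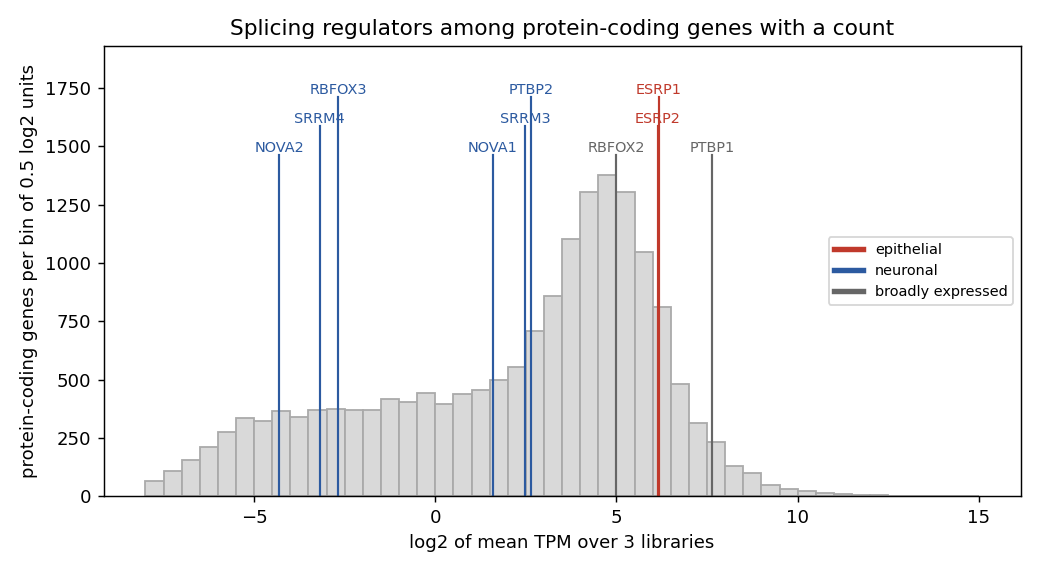
Number of protein-coding genes (grey bars) by the log2 of mean TPM over 3 C4-2B libraries, with a line for each splicing regulator; 2481 genes with no count and 48 below the lowest bin are left out. ESRP1 and ESRP2 stand to the right of the main peak, PTBP2, SRRM3 and NOVA1 on its left slope, and RBFOX3, SRRM4 and NOVA2 in the low tail.

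ESRP1 and ESRP2 are the RNA-binding proteins that set the epithelial pattern of exons in FGFR2, CD44, CTNND1 and ENAH. ESRP1 (ENSG00000104413, chromosome 8, plus strand, 17 merged exons) stood at 71.0, 70.8 and 74.4 TPM in replicates 1, 2 and 3, from 5021, 5491 and 5357 counts. Its mean of 72.1 ± 2.02 TPM was above that of 90.3% of protein-coding genes. ESRP2 (ENSG00000103067, chr16:68229111-68238102, minus strand, 13 merged exons) stood at 72.9, 68.8 and 69.9 TPM, from 5881, 6095 and 5747 counts, with a mean of 70.6 ± 2.12 TPM. The ranges of both genes overlapped. ESRP1 was higher in 2 of 3 libraries, and their log2 ratio of 0.03 ± 0.064 was smaller than its SD. On CPM (the count scaled to the library total, without correction for length) the ratio was -0.16, and the ESRP2 exons are the longer ones (5563 against 4875 bases). Exons of other genes covered 4.01% of the ESRP2 exons, where reads were assigned to neither gene. RBM47, another RNA-binding protein of epithelial cells, reached 37.0 ± 0.638 TPM.

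PTBP1, the polypyrimidine tract-binding protein that represses neural exons in non-neuronal cells, was the highest member. PTBP1 (ENSG00000011304, chr19:797075-812327, plus strand) stood at 201.5, 198.5 and 199.8 TPM from 20105, 21749 and 20312 counts, above 97.4% of protein-coding genes. PTBP2 (ENSG00000117569, chr1:96721665-96823738, plus strand), its neural relative, stood at 5.82, 6.26 and 6.69 TPM from 1092, 1290 and 1279 counts. The PTBP1 level was 34.6, 31.7 and 29.8 times that of PTBP2 in replicates 1 to 3 (mean 32.0 ± 2.40). PTBP3, a broadly expressed relative, stood between them at 56.02 ± 0.894 TPM. Of the summed PTBP level of 262.2 ± 1.77 TPM, PTBP1 gave 76.2% ± 0.417, PTBP3 21.4% ± 0.259 and PTBP2 2.39% ± 0.163. PTBP2 was above 50.7% of protein-coding genes and formed a small part of its family. DLG4 and GABBR1, whose neural exons PTBP proteins repress, were at 6.59 ± 0.622 and 6.39 ± 0.313 TPM.

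SRRM3 and SRRM4 promote microexons in neurons, and they diverged here. SRRM4 (ENSG00000139767, chr12:118981495-119163051, plus strand) had 15, 19 and 10 counts, which corresponded to 0.117, 0.135 and 0.0765 TPM. Counts of 15 and 19 are odd, so not every count had a counted mate. With all counts taken as mates of counted pairs, the 44 counts stand for 22 read pairs. Counting error alone (exact Poisson 95% interval over pairs, doubled) then puts the sum between 27.6 and 66.6 counts, or 0.0686 to 0.166 TPM. With counts taken singly the interval is narrower, at 32.0 to 59.1 counts. SRRM3 (ENSG00000177679, chr7:76201900-76287288, plus strand) had 605, 602 and 526 counts, or 6.07, 5.50 and 5.18 TPM. SRRM3 was 51.9, 40.8 and 67.7 times higher than SRRM4 in replicates 1, 2 and 3, without overlap, and this ratio varied with the few SRRM4 counts. Its mean of 5.59 ± 0.451 TPM was above 49.6% of protein-coding genes, and the SRRM4 mean of 0.109 ± 0.0299 TPM was above 25.1%. SRRM1 and SRRM2, broadly expressed spliceosome-associated proteins grouped here with SRRM3 and SRRM4 by gene name, stood at 50.1 ± 1.77 and 231 ± 4.08 TPM. They held 17.5% and 80.5% of the summed SRRM level. SRRM3 held 1.95% ± 0.191 of it and SRRM4 0.0383% ± 0.0109.

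The transcripts on which SRRM4 is known to act were present. REST stood at 44.05 ± 1.58 TPM, above 83.0% of protein-coding genes, and PHF21A, a component of a corepressor complex that acts with REST, at 14.0 ± 0.508 TPM. In each gene the count covered all isoforms together.

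RBFOX proteins bind GCAUG and act in muscle, brain and epithelium, with RBFOX3 known as the neuronal nuclear antigen NeuN. RBFOX2 (ENSG00000100320, chr22:35738736-36028425, minus strand) stood at 30.6, 32.0 and 32.6 TPM from 4443, 5102 and 4816 counts, above 76.7% of protein-coding genes. RBFOX3 (ENSG00000167281, chr17:79089345-79516148, minus strand) stood at 0.147, 0.210 and 0.110 TPM from 21, 33 and 16 counts. RBFOX2 was 208.6, 152.4 and 296.8 times higher in replicates 1, 2 and 3, without overlap. It gave 99.5% ± 0.158 of the family level and RBFOX3 0.488% ± 0.158. RBFOX1, the third gene of the family, had no count in any library, and a floor of 3 counts over the 3 libraries corresponds to 0.00656 TPM. The log2(TPM + 0.1) difference of RBFOX2 over RBFOX3 was 6.98 ± 0.295, the widest of the 5 pairs.

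NOVA1 and NOVA2 bind YCAY clusters and were first known as neuronal antigens. NOVA1 (ENSG00000139910, chr14:26443093-26597754, minus strand) stood at 2.86, 2.91 and 3.20 TPM from 417, 465 and 475 counts. NOVA2 (ENSG00000104967, chr19:45933734-45973546, minus strand) had 6, 8 and 6 counts, the lowest of all members, and 0.0477, 0.0579 and 0.0468 TPM. Taken as 10 read pairs in the same way, its 20 counts have an interval of 9.59 to 36.8 counts, or 0.0243 to 0.0934 TPM. NOVA1 was 60.1, 50.2 and 68.4 times higher in replicates 1, 2 and 3 and gave 98.3% ± 0.258 of the summed NOVA level. Its mean was above 44.6% of protein-coding genes and NOVA2 above 21.0%.

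**Figure D3:**
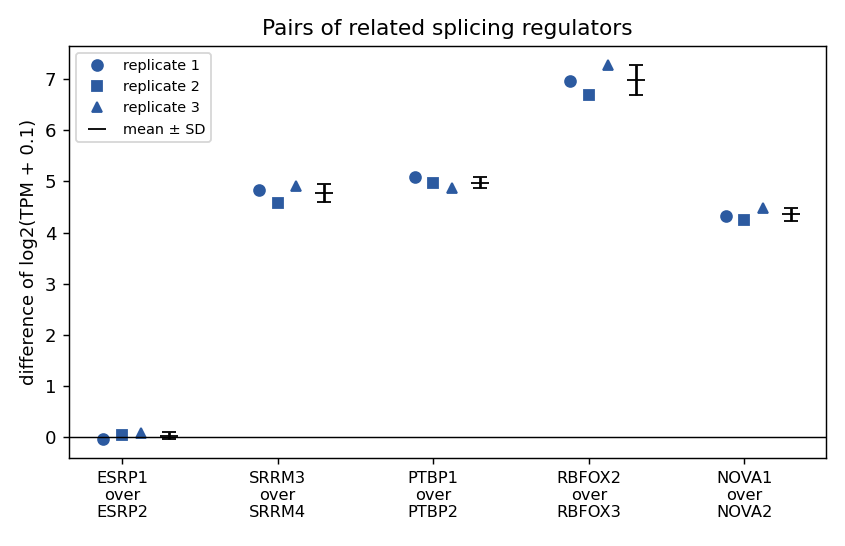
Difference of log2(TPM + 0.1) within 5 pairs of related splicing regulators; symbols are the 3 C4-2B libraries and the bar with whiskers is the mean ± SD. The ESRP pair lies at 0.03, and the other pairs lie between 4.36 and 6.98 with no library near 0.

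The ESRP level was split almost evenly, at 50.5% ± 1.11 for ESRP1, whereas a single gene gave over 76% of the PTBP, SRRM, RBFOX and NOVA levels. The log2(TPM + 0.1) differences were 4.77 ± 0.172 for SRRM3 over SRRM4, 4.98 ± 0.106 for PTBP1 over PTBP2 and 4.36 ± 0.122 for NOVA1 over NOVA2. Each was many times its SD.

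**Figure D4:**
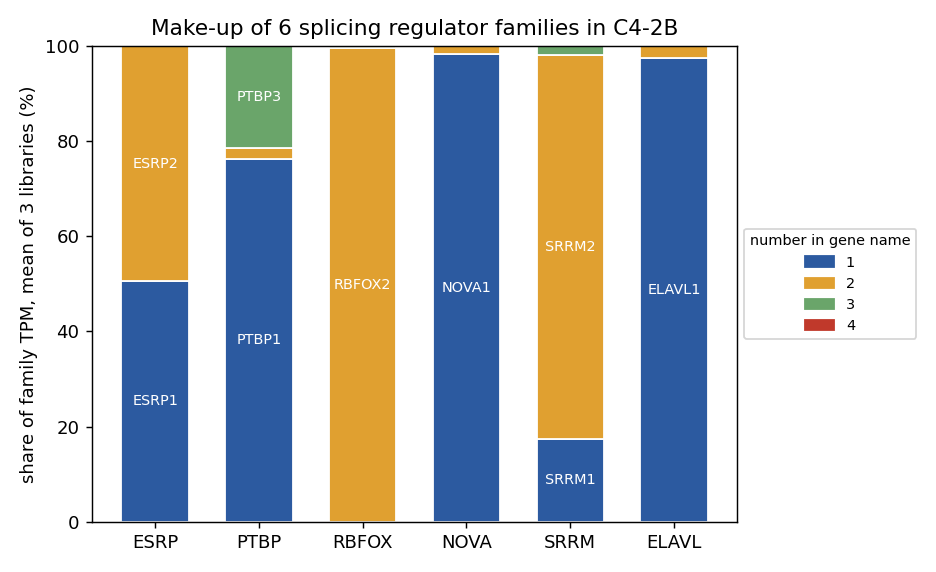
Share of each gene in the summed TPM of its family, grouped by gene name (percent, mean of 3 C4-2B libraries). Colours give the number in the gene's name, and segments under 6% carry no label. The ESRP bar is split at 50.5%, whereas RBFOX2, NOVA1 and ELAVL1 fill 99.5%, 98.3% and 97.4% of their bars.

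The 10 members fell into an order in which most neighbours were apart in every library. From the top it ran PTBP1, ESRP1, ESRP2, RBFOX2, PTBP2, SRRM3, NOVA1, RBFOX3, SRRM4 and NOVA2. Ranges overlapped in 3 of the 9 neighbouring pairs, namely ESRP1 with ESRP2, PTBP2 with SRRM3 and RBFOX3 with SRRM4. PTBP2 was above SRRM3 in 2 of 3 libraries, by 0.17 ± 0.216 on the log2 scale, which is less than the SD. RBFOX3 was above SRRM4 in all 3 libraries by 0.50 ± 0.157, with 70 and 44 counts in all. These ranges are not counting intervals. The Poisson interval over read pairs for SRRM4 (0.0686 to 0.166 TPM) overlapped those of RBFOX3 (0.108 to 0.216 TPM) and NOVA2 (0.0243 to 0.0934 TPM). The order of these low genes is therefore uncertain. The widest gap was the 19.9-fold step from NOVA1 down to RBFOX3, which separated the 7 members above 1 TPM from the 3 at or below 0.210 TPM.

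The median coefficient of variation between libraries was 6.54% over the members and 5.28% over protein-coding genes. The coefficient of variation was 0.752% for PTBP1, 2.80% for ESRP1, 3.004% for ESRP2 and 3.17% for RBFOX2, below the protein-coding median. The other 6 members lay above it. It was 6.13% for NOVA1, 6.95% for PTBP2, 8.08% for SRRM3 and 12.1% for NOVA2, and reached 27.3% for SRRM4 and 32.6% for RBFOX3. Counting error alone, with counts taken singly, would give 38.7% for NOVA2, 26.1% for SRRM4 and 20.7% for RBFOX3. For NOVA1, PTBP2 and SRRM3 it would give 4.70%, 2.86% and 4.16%. A chi-square goodness-of-fit test compared each gene's 3 counts with the library sizes scaled by TMM. The statistic was divided by 2 because the mates of a read pair were counted separately. After Benjamini-Hochberg adjustment over 22229 genes, 0 of the 9 members with at least 30 counts differed between libraries, where 0.792% of all genes tested did. At an unadjusted p under 0.05 there was 1, ESRP2 (adjusted p = 0.406), beside 11.3% of all genes tested. Adjusted p-values of the others ran from 0.525 for PTBP2 to 0.884 for SRRM4. With the chi-square statistic not divided, ESRP2 (adjusted p = 0.0149) and PTBP2 (adjusted p = 0.0442) passed, and so did 17.3% of all genes tested. These member counts are near what the share over all genes gives, so they set the members apart in neither direction. The test compares libraries, not conditions, and nothing in the labels says that the replicates came from separate cultures, so this spread may be technical.

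Of 9 other splicing regulators linked to neurons, 1 reached 1 TPM in all libraries, beside 61.2% of protein-coding genes. Their median was 0.0750 TPM, against 1.57 TPM for the neuronal members. The levels of both lists overlapped. ELAVL2, a neuronal RNA-binding protein, was the highest at 2.39 ± 0.196 TPM, and CELF4 followed at 0.983 ± 0.152 TPM. RBFOX1 had no count and CELF6 had 1 count in all. Exons of other genes covered 93.2% of the CELF6 exons, where reads were assigned to neither gene, so its level is uncertain. ELAVL1, the broadly expressed gene of the ELAVL family, stood at 91.4 ± 0.526 TPM. Broadly expressed genes named like the members (PTBP3, SRRM1 and SRRM2) or like the other neuronal regulators (ELAVL1, CELF1 and KHDRBS1) reached 1 TPM in 6 of 6 cases. Their median was 101.4 TPM, from SRRM1 and PTBP3 at the bottom to KHDRBS1 (201.3 ± 2.15 TPM) and SRRM2 at the top. The 26 SR proteins, hnRNPs and core factors all reached 1 TPM, with a median of 117.1 TPM. The highest were HNRNPF (472.4 ± 2.84 TPM) and HNRNPA1 (396.6 ± 2.29 TPM), and the lowest were U2AF1 (1.21 ± 0.136 TPM) and RBM5 (27.1 ± 0.752 TPM). Of the 75-base exon windows of U2AF1, 91.2% occur elsewhere in the genome, and reads aligned to several places were not counted, so its level is uncertain. ESRP1 and ESRP2 thus lay in the range of general splicing factors, and every neuronal member lay below all of them but U2AF1.

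**Figure D5:**
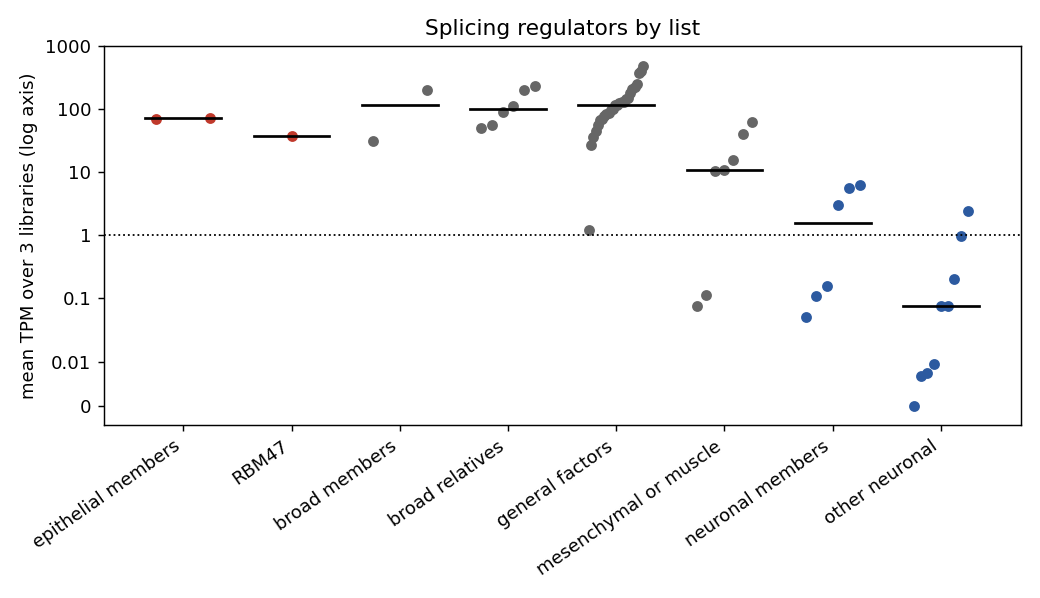
Mean TPM of splicing regulators (log axis, with genes without a count drawn at 0) by list in C4-2B; points are genes, black bars list medians and the dotted line marks 1 TPM. Medians are 71.3 TPM for the epithelial members, 117.1 TPM for general factors, 1.57 TPM for the neuronal members and 0.0750 TPM for the other neuronal regulators.

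Splicing regulators tied to mesenchymal or muscle cells reached 1 TPM in 5 of 7 cases, beside 61.2% of protein-coding genes, with a median of 11.0 TPM. MBNL1, which opposes fetal splicing in muscle, was highest at 62.9 ± 0.764 TPM, and RBM24, a muscle splicing factor, stood at 40.4 ± 1.57 TPM, above RBFOX2. CELF2 (0.112 ± 0.0606 TPM) and RBM20 (0.0768 ± 0.0361 TPM) were lowest. ESRP1 and ESRP2 lay above all 7 of these genes on TPM. On CPM MBNL1 was higher, at 201.5 against 112.7 for ESRP1 and 126.0 for ESRP2. Exons of other genes covered 15.6% of the MBNL1 exons, where reads were assigned to neither gene, so its place below the ESRP genes depends on the processing.

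Beside REST, the transcription factors listed as upstream factors were 3 of an epithelial and 5 of a mesenchymal role, and 3 of 3 and 2 of 5 reached 1 TPM. GRHL2, an activator of epithelial genes, stood at 202.3 ± 2.74 TPM, and OVOL2 and OVOL1, which hold the epithelial state, at 18.7 ± 1.12 and 9.61 ± 0.694 TPM. ZEB1, a repressor of ESRP1, had 12 counts over the 3 libraries (0.0308 ± 0.00150 TPM), and ZEB2 had 4 counts (0.00352 ± 0.00306 TPM). TWIST1, of the same mesenchymal group, stood at 0.121 ± 0.0972 TPM. SNAI2 and SNAI1, also repressors of epithelial genes, were present at 22.3 ± 1.67 and 7.79 ± 1.35 TPM. With REST, 6 of the 9 upstream factors reached 1 TPM, beside 61.2% of protein-coding genes.

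Known targets of the members differed widely in level. CTNND1 (p120 catenin) stood at 152.4 ± 0.846 TPM, ENAH, an actin regulator, at 60.3 ± 1.66 TPM, and ARHGEF11, a guanine nucleotide exchange factor, at 28.7 ± 0.816 TPM. FGFR2, whose mutually exclusive exons are the best known ESRP target, reached 1.56 ± 0.159 TPM, and the cell surface receptor CD44 had 27 counts in all (0.0602 ± 0.0264 TPM). Of the 10 target genes, PTBP2 and REST among them, 9 reached 1 TPM and CD44 did not, beside 61.2% of protein-coding genes.

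The markers of an epithelial line were present. All 7 luminal epithelial markers reached 1 TPM, with EPCAM at 89.9 ± 3.63 TPM, CDH1 at 369.4 ± 6.07 TPM and a summed level of 3399 to 3447 TPM by library. Of 7 neuronal and neuroendocrine markers 3 reached it, MAP2 at 4.92 ± 0.246 TPM, CHGA at 1.378 ± 0.243 TPM and SYP at 1.31 ± 0.0773 TPM, and the sum ran from 8.59 to 9.15 TPM. TUBB3 had a mean of 1.145 ± 0.196 TPM but missed the threshold in replicate 3, at 0.947 TPM. Exons of other genes covered 35.8% of the TUBB3 exons. SNAP25, DCX and STMN2 stood at 0.0187, 0.0130 and 0.00887 TPM. Of 5 stromal markers 2 reached 1 TPM, VIM and COL1A1, with a sum of 26.96 to 28.98 TPM, while COL1A2 and DCN had no count. No immune marker of 3 did, and their sum was 0.174 to 0.720 TPM. The highest of them was CD68, at 0.325 ± 0.266 TPM. Exons of other genes covered 85.8% of the CD68 exons, where reads were assigned to neither gene, so its level is uncertain. Among protein-coding genes 61.2% reached 1 TPM. The part of cells with neuronal markers in the levels of SRRM3, PTBP2 and NOVA1 was not tested, and in bulk RNA a few cells with much transcript and many cells with little cannot be told apart. Total counts were 44992971, 49569026 and 46232076 by library, and strand was not used in counting. Of the members' 75-base exon windows, 0.0850% of those in NOVA2 and none in the others occurred elsewhere in the genome.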

How the data were processed

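The labels describe RNA from C4-2B cells that was depleted of ribosomal RNA before directional, paired-end sequencing. The authors trimmed reads with Trim Galore, aligned them with STAR 2.7.0f and deposited raw counts per gene from featureCounts 1.6.3, on GRCh38 with Ensembl release 90. Per the file headers no strand or fragment option was set, so mates were counted separately and a read on either strand was counted. The other deposited value is gene length, the union of exons (checked for 58302 genes). Symbols were matched for 57532 genes, and types and exon numbers came from GENCODE release 44.

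TPM was computed from counts and deposited length over all genes, with means and SDs over 3 libraries. Pseudocounts were 1 for lists and 0.1 for pairs. Expressed meant at least 1 TPM in every library. The chi-square test took genes with at least 30 counts, TMM factors from edgeR 4.0.16 and a threshold of 0.05 (2 degrees of freedom). It was tested on simulated data in which both mates of every pair were counted. In the data 56.6% of counts from 1 to 10 were even, so not every count had a counted mate. Where a mate was not counted, division by 2 makes the test stricter. DESeq2 1.42.0 gave alternative size factors. Intervals are exact Poisson (95%) over read pairs (counts divided by 2, bounds doubled), since mates were counted separately, a choice made after seeing the data. The floor was 3 counts, and both cover counting error only. Total counts were 44992971, 49569026 and 46232076. Sequence windows of 75 bases were searched on both strands of the genome. Python 3.11.15, numpy 2.4.6, pandas 2.3.3, scipy 1.17.1, matplotlib 3.10.9 and R 4.3.3 were used.

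The members and lists were chosen with earlier results of these data known. All 10 members are named. Of each wider list the 2 highest and 2 lowest genes are named, and of the upstream and target lists every gene. ELAVL1, RBM47 and the markers named were chosen after their values were seen. Alternatives were CPM, length outside exons of other genes, a protein-coding denominator, other pseudocounts, thresholds, list means, sides and size factors, and each replicate left out.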

Additional observations from a re-analysis of the deposited data

How the results depend on the processing

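The number of members at 1 TPM or more stayed at 7 under every alternative tried, also at 0.5 TPM. CPM in place of TPM moved the epithelial minus neuronal difference from 5.07 to 4.92, the log2 ratio of ESRP1 over ESRP2 to -0.16, that of PTBP1 over PTBP2 to 4.08, that of RBFOX2 over RBFOX3 to 7.46 and that of NOVA1 over NOVA2 to 5.33. A protein-coding denominator gave 5.32 for the difference, 4.97 for SRRM3 over SRRM4 and 4.64 for NOVA1 over NOVA2. For the difference, a pseudocount of 0.1 gave 6.34 and list means 4.84. Adding PTBP1 and RBFOX2 to the epithelial side could not change it, since PTBP1 lay above and RBFOX2 below both ESRP genes in every library. With a pseudocount of 1, which pulls low genes up, the log2 ratios were 2.57 for SRRM3 over SRRM4, 4.79 for PTBP1 over PTBP2, 4.82 for RBFOX2 over RBFOX3 and 1.92 for NOVA1 over NOVA2. Length outside exons of other genes moved the log2 ratio of ESRP1 over ESRP2 to -0.03, within its SD. Without 1 replicate the difference ran from 5.05 to 5.10. The library test called 0 members under every alternative but the undivided chi-square, which called 2 members and 17.3% of all genes tested. No paired analysis was possible because a single group was analysed. Depth limits SRRM4, RBFOX3 and NOVA2, which rest on 20 to 70 counts over all libraries. Counting without strand leaves antisense reads in the values.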
